A study of Mus musculus with 8 samples.

Results

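The small proline-rich protein genes, Sprr, were examined in ear skin of mice in which the corneodesmosin gene was targeted in the epidermis. The genes were 9 listed Sprr genes, taken by their symbol from the authors' deposited table of KO against WT, out of 3024 genes with a symbol there and 33793 probe sets measured. They were Sprr1a, Sprr2a2, Sprr2d, Sprr2e, Sprr2f, Sprr2g, Sprr2h, Sprr2i and Sprr2j-ps, measured by 10 probe sets because Sprr2a2 had 2. KO mice carried the tamoxifen-inducible recombinase KRT14-CreERT2 and 2 floxed alleles of Cdsn, the corneodesmosin gene. WT mice carried the same recombinase and unmodified Cdsn alleles. All mice were on the C57B/6J background as the labels spell it, were 7 to 12 weeks old when treated, and had 100 µg of 4-hydroxytamoxifen put on each ear daily for up to 15 days. The KRT14 promoter is active in basal keratinocytes, so the design was aimed at the keratinocyte lineage and not at other cells of the ear. Recombination by cell type was not measured here. Each of the 4 KO and 4 WT arrays held RNA of a different animal, and values are RMA-processed log2 values.

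Small proline-rich proteins are short proteins that transglutaminases cross-link into the cornified envelope, the protein shell that replaces the membrane of keratinocytes in the outermost layer of the skin. Their genes lie side by side in the epidermal differentiation complex, and in mouse skin several of them are known to be induced when the barrier is disturbed or the tissue is inflamed. Sprr1a encodes a longer relative of the Sprr2 proteins, and the Sprr2 genes arose by repeated duplication. Sprr2g and Sprr2j-ps are classed as transcribed pseudogenes in the RefSeq annotation of GRCm38.p6.

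The promoters of 5 of the Sprr2 genes shared a layout that the choice of genes did not use. RefSeq sequences of the 250 bases before the annotated start were at hand for 7 of the 9 genes, all but Sprr2g and Sprr2j-ps. They were searched on both strands for TGANTCA, which binds the AP-1 factors Fos and Jun, for the octamer ATTTGCAT, which binds POU factors, for the TATA box TATAAA, and for the interferon-stimulated element, as a pair of GAAA repeats with a gap. Of these, 4 promoters are shown, Sprr2e, Sprr2i and Sprr2h as examples of the shared layout and Sprr1a because it lacks that layout. Capitals mark the matches to TGANTCA, ATTTGCAT and TATAAA. The windows are chr3:92351893-92352142 on the plus strand for Sprr2e, chr3:92407741-92407990 on the plus strand for Sprr2i, chr3:92385435-92385684 on the plus strand for Sprr2h and chr3:92485882-92486131 on the minus strand for Sprr1a, all in GRCm38.p6.
Sprr2e: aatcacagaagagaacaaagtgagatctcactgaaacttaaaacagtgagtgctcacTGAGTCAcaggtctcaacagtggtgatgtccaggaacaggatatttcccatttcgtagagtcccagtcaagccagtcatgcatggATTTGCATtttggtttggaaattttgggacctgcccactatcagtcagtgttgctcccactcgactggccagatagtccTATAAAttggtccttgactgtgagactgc
Sprr2i: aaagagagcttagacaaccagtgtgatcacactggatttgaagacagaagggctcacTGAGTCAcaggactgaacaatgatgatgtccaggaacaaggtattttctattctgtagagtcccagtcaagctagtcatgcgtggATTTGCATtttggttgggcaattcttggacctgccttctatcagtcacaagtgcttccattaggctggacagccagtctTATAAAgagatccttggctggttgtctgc
Sprr2h: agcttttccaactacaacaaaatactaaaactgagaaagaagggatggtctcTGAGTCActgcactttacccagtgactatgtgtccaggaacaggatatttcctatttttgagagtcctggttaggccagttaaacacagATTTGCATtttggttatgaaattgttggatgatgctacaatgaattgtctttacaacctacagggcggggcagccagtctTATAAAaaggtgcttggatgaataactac
Sprr1a: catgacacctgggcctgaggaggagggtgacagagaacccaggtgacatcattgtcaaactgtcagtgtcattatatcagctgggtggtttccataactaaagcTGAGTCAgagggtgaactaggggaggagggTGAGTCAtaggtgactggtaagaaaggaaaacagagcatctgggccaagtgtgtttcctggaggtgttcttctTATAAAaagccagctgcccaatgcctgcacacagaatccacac

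Sprr2d, Sprr2e, Sprr2f, Sprr2h and Sprr2i each held 1 AP-1 match, 1 octamer and 1 TATA box in that order. Counted from the start, where -1 is the last base before it, the AP-1 match began between -198 and -193, the octamer between -112 and -108, and the TATA box at -29 in all 5. Sprr1a held AP-1 matches beginning at -146 and -116 and a TATA box at -43, with no octamer in this window. No motif was found in the window of Sprr2a2, which is identical over its 250 bases to that of Sprr2a1. RefSeq gives Sprr2a2 a length of 6658 bases, against 1256 to 1734 bases for Sprr2d, Sprr2e, Sprr2f, Sprr2h and Sprr2i. Whether the annotated start of Sprr2a2 is the one used in skin is not known here, so the lack of matches holds for this window only. The interferon-stimulated element was found in 0 of the 7 promoters. These are matches of letters, and binding was not measured.

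Of the 32851 promoter windows of this length in the table, 6.75% held TGANTCA, 1.60% the octamer, 12.4% TATAAA and 2.98% the interferon-stimulated element. The AP-1 match and the octamer occurred together in 55 windows, or 0.167%, and with the TATA box in 14 windows, or 0.0426%. Those 14 include the 5 genes above and 2 further members of the family, Sprr2b and Sprr2k, which are not named in the deposited table. In global alignments the 250 bases of Sprr2d and Sprr2e were 88.9% identical, those of Sprr2e and Sprr2i 77.4%, those of Sprr2f and Sprr2h 57.0%, and those of Sprr1a and Sprr2h 44.9%. Because the Sprr2 genes are duplicates of one another, their common motifs are not independent observations. The map of motif positions shows the common spacing.

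**Figure D1:**
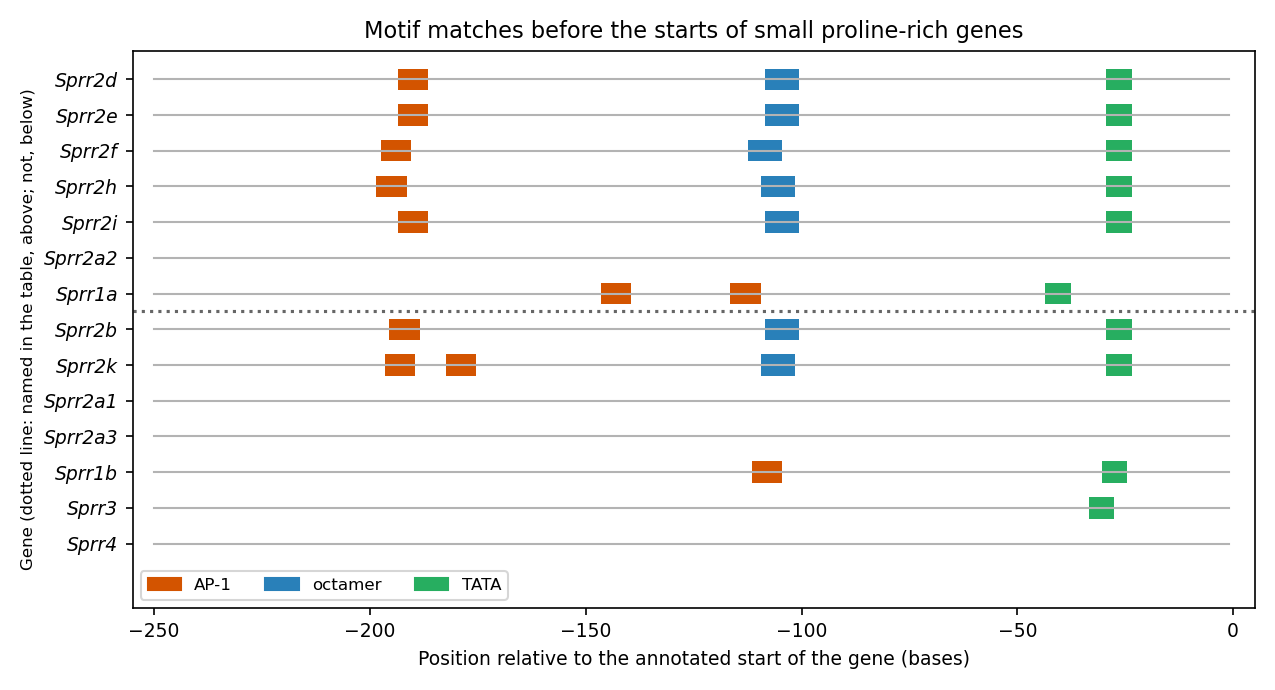
Matches to the AP-1, octamer and TATA motifs in the 250 bases before the annotated start of 14 small proline-rich genes, with position in bases from the start on the horizontal axis. The TATA box begins at -29 and the octamer between -112 and -108 in Sprr2d, Sprr2e, Sprr2f, Sprr2h and Sprr2i, and Sprr2a2 has no match.

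The deposited table lists probe sets with an adjusted p under 0.05 and a log2 difference of at least 0.5 either way, so the KO and WT values chose these genes. Their differences are given as descriptions. On that rule 7.63% of all probe sets were higher in KO. At adjusted p under 0.05 alone, 9.91% were called higher. The 9 genes were all called because the table holds only called probe sets, higher or lower, and each of the 9 was higher. Adjusted p in the authors' deposited table was 0.0062 to 0.0491 for the 10 probe sets. Closest to the limit were the second probe set of Sprr2a2 at 0.0491 and Sprr2h at 0.0413, both from the authors' deposited table, and the smallest log2 difference was 0.97, for Sprr1a. Probe sets just outside the limits carry no gene name in the sources used here, so further Sprr genes could not be placed on either side of them.

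Cdsn, the targeted gene, read 10.31, 8.89, 9.82 and 9.49 in KO and 12.05, 11.76, 12.13 and 12.06 in WT (log2), a difference of -2.37 (SE 0.26), so that its RNA was reduced and not absent. One control array stood apart from the other controls over the whole array. On the first principal component of all probe sets, with 50.4% of the variance, KO lay between 4.48 and 75.4, WT replicate 1 at -2.60 and the other WT arrays between -50.5 and -43.5. WT replicate 1 was the highest WT array for 9 of 9 Sprr genes, as it was for 26.8% of all probe sets. It exceeded the mean of the other 3 WT arrays by a median of 1.88 log2 units over the 9 genes, whereas its median excess over all probe sets was -0.002. The excess was also seen in genes of other lists given below. The 12 envelope list genes in the table averaged 9.22 in WT replicate 1 and 6.83 to 7.11 in the other WT arrays. These values were 7.27 and 4.44 to 5.62 for 5 neutrophil markers, and 6.06 and 5.55 to 5.72 for 3 mast cell markers. Differences of the Sprr genes are therefore given with and without this array. In whole ear skin, more cells that make an RNA and more RNA per cell cannot be told apart.

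All 9 genes were higher in KO. The median log2 difference was 2.99, from 0.97 to 4.34, against 0.094 over all probe sets. Without WT replicate 1 the median over the 9 genes was 3.81, from 1.20 to 5.32. The KO arrays all lay above the WT arrays for 5 of the 9 genes, Sprr2j-ps, Sprr2g, Sprr2e, Sprr2i and Sprr2f, where 15.9% of all probe sets did so. Without WT replicate 1 this held for 9 of 9 genes and for 20.9% of all probe sets, and limma called 9 of 9 as higher, as it did 7.9% of all probe sets. Leaving out any other single array gave 3 to 7 calls of the 9, where 1574 to 2630 of all 33793 probe sets were called higher. The plot of values by array shows WT replicate 1 above the other controls for every gene.

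**Figure D2:**
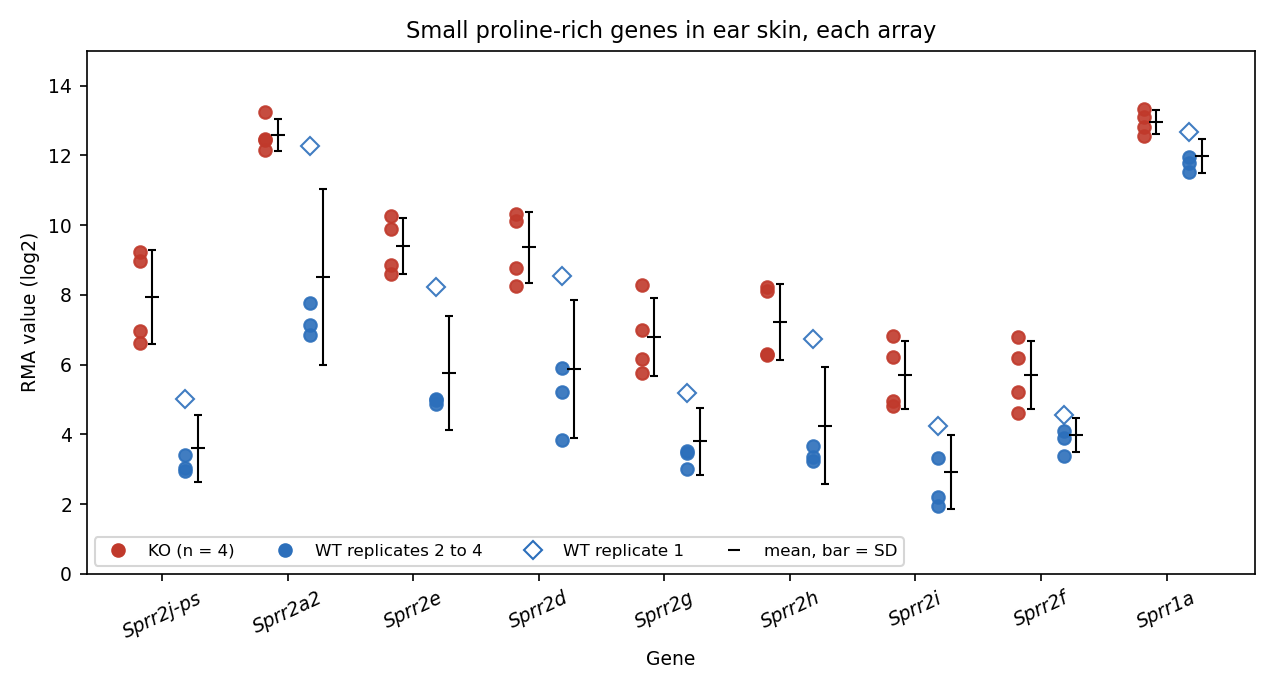
RMA log2 value of each small proline-rich gene on each array, 4 KO arrays in red left of 4 WT arrays in blue, with WT replicate 1 as an open diamond and the mean and SD in black. Genes are in order of their log2 difference, from 4.34 for Sprr2j-ps to 0.97 for Sprr1a, and WT replicate 1 reached the KO range for Sprr2a2, Sprr2d, Sprr2h and Sprr1a.

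The Sprr2a2 probe set of higher signal had 27 probes and read 13.23, 12.47, 12.16 and 12.44 in KO, against 12.26, 7.78, 6.85 and 7.15 in WT (log2). WT replicate 1 lay within the KO range and the lowest KO array 4.38 log2 units above the other WT arrays. The difference was 4.07 (SE 1.04, a 16.8-fold ratio), and 5.32 without WT replicate 1, a 39.8-fold ratio. Both Sprr2a2 probe sets were of cross-hybridisation class 3, which marks probes that also match other transcripts, and the annotation of the one above lists transcripts of Sprr2a1 as well as Sprr2a2. The values may therefore combine the near-identical copies. The second probe set, of 8 probes, read 10.60, 8.49, 7.79 and 8.80 in KO and 8.61, 4.78, 4.31 and 4.54 in WT, a difference of 3.36 (SE 0.96) and of 4.37 without WT replicate 1. It too placed WT replicate 1 within the KO range. The other 8 genes had probe sets of class 1, which are annotated as unique.

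Sprr2d, which lies beside Sprr2e, read 10.31, 10.12, 8.25 and 8.77 in KO and 8.54, 5.89, 3.83 and 5.23 in WT (log2). Its difference was 3.49 (SE 0.90, an 11.2-fold ratio), 4.38 without WT replicate 1, a 20.8-fold ratio, and 2.81 without WT replicate 3. The other 3 WT arrays spread over 2.07 log2 units, more than for any other of the 9 genes, and WT replicate 1 again fell within the KO range. Sprr2e read 9.90, 10.26, 8.86 and 8.61 in KO and 8.22, 5.0, 4.86 and 5.01 in WT. Its KO and WT values did not overlap, by 0.39 log2 units, and WT replicates 2 to 4 agreed within 0.15. The difference of Sprr2e was 3.64 (SE 0.74, a 12.4-fold ratio), and 4.45 without WT replicate 1, a 21.9-fold ratio.

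Sprr2h read 8.10, 8.23, 6.31 and 6.27 in KO and 6.74, 3.68, 3.24 and 3.35 in WT (log2), a difference of 2.98 (SE 0.81, a 7.88-fold ratio), and of 3.81 without WT replicate 1. WT replicate 1 exceeded KO replicates 3 and 4, so the groups overlapped. Sprr2i read 6.83, 6.21, 4.96 and 4.81 in KO and 4.25, 1.94, 2.21 and 3.32 in WT, a difference of 2.77 (SE 0.59, a 6.82-fold ratio), and of 3.21 without WT replicate 1. Sprr2f read 6.18, 6.80, 5.22 and 4.61 in KO and 4.56, 4.10, 3.89 and 3.37 in WT, a difference of 1.72 (SE 0.45, a 3.30-fold ratio), and of 1.91 without WT replicate 1. The groups of Sprr2i were 0.56 log2 units apart, and those of Sprr2f were 0.05 apart. Among the 8 Sprr2 genes, Sprr2f had the smallest difference. Its promoter carries the same 3 motifs as those of Sprr2d and Sprr2e, and a relation of motifs to differences was not tested.

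Both transcribed pseudogenes were among the genes with no overlap. Sprr2j-ps read 9.22, 8.96, 6.62 and 6.96 in KO and 5.01, 2.95, 3.40 and 3.04 in WT (log2), a difference of 4.34 (SE 0.67, a 20.3-fold ratio), and of 4.81 without WT replicate 1. Its lowest KO array was 1.61 above its highest WT array. Sprr2g read 6.98, 8.27, 6.15 and 5.75 in KO and 5.19, 3.52, 3.02 and 3.47 in WT, a difference of 2.99 (SE 0.60, a 7.93-fold ratio), and of 3.45 without WT replicate 1. Their probe sets had 18 and 17 probes of class 1. Beyond that class, signal from similar Sprr2 transcripts was not tested.

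Sprr1a had the smallest difference. It read 13.11, 13.33, 12.80 and 12.55 in KO and 12.66, 11.52, 11.78 and 11.95 in WT (log2), a difference of 0.97 (SE 0.25, a 1.96-fold ratio), and 1.20 without WT replicate 1. Only WT replicate 1 reached the KO range. Across the 9 genes the group means lay between percentiles 52.2 and 99.9 of all probe sets in KO and between 11.9 and 99.5 in WT. The WT means of Sprr2i, Sprr2j-ps, Sprr2g and Sprr2f lay at percentiles 11.9, 20.1, 22.8 and 25.5. Detection calls were not analysed here, so ratios of genes with low WT values may be lower bounds, and the order of the differences is that of the measured values only.

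Along chromosome 3 the Sprr2 genes follow each other on the plus strand in RefSeq, and Sprr1a lies further on, on the minus strand, after Sprr2k, Sprr1b and Sprr3. From Sprr2d to Sprr2j-ps 7 consecutive genes were in the table, with differences of 3.49, 3.64, 1.72, 2.99, 2.98, 2.77 and 4.34 log2 units in that order. The values formed no steady gradient along the cluster. Of the 17 Sprr genes of the annotation, the 8 not named in the table are Sprr2a1, Sprr2a3, Sprr2b, Sprr2c-ps, Sprr2k, Sprr1b, Sprr3 and Sprr4. Transcripts of Sprr2a1 are listed in the annotation of the brighter Sprr2a2 probe set, so signal of Sprr2a1 may be part of that value. The others either missed the table's limits or had no probe set under that name, and these cases cannot be told apart.

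**Figure D3:**
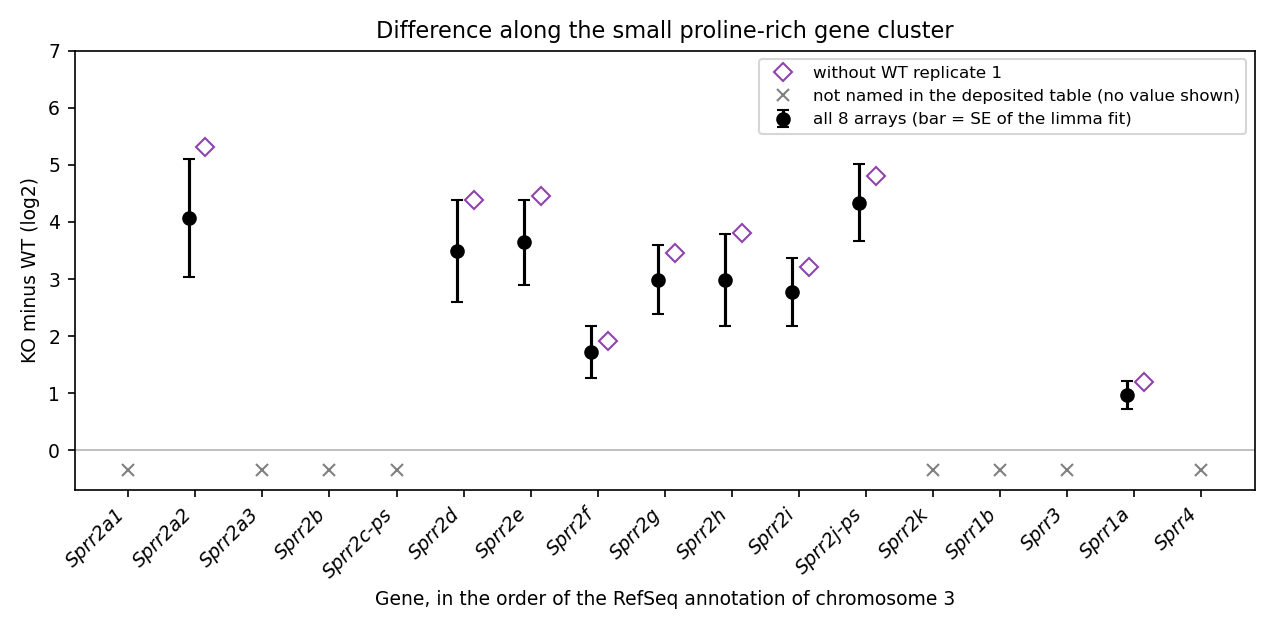
Log2 difference of KO minus WT for the small proline-rich genes in their order on chromosome 3, with all 8 arrays (filled, bar = SE of the limma fit) and without WT replicate 1 (open). The 7 consecutive genes from Sprr2d to Sprr2j-ps have differences of 1.72 to 4.34, Sprr1a has 0.97, and grey crosses mark genes with no value under their own symbol.

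The position of WT replicate 1 differed between the genes. It was expressed as the share of the way from the mean of the other 3 WT arrays to the KO mean, with a median of 73.3% over the 9 genes. It was 94.0% for Sprr2a2, 87.1% for Sprr2h, 81.1% for Sprr2d, 76.5% for Sprr1a and 73.3% for Sprr2e. It was 54.8% for Sprr2i, 53.6% for Sprr2g, 40.1% for Sprr2f and 39.0% for Sprr2j-ps. In linear terms Sprr2a2 was 32.0-fold, Sprr2h 9.97-fold and Sprr2j-ps 3.68-fold higher in WT replicate 1 than in the mean of the other WT arrays. The 5 genes with the lowest shares, Sprr2e included, are also those whose KO and WT values did not overlap. Both measures depend on WT replicate 1, since no gene overlapped without it, so they are not independent.

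KO arrays also differed among themselves in a common pattern. KO replicates 1 and 2 both read above KO replicates 3 and 4 for 9 of 9 genes, as they did for 25.2% of all probe sets, and the second Sprr2a2 probe set did not follow this. The spread of the KO arrays was 2.60 log2 units for Sprr2j-ps, 2.53 for Sprr2g, 1.07 for Sprr2a2 and 0.78 for Sprr1a. Cdsn did not order the KO arrays this way, since KO replicate 1 had the highest and KO replicate 2 the lowest Cdsn value of the 4. The mean of the 9 genes was 9.32, 9.41, 7.93 and 7.86 in KO and 7.49, 5.15, 4.79 and 5.10 in WT (log2).

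Profiles over the 8 arrays were compared after subtracting each gene's mean. Among pairs of Sprr genes, Sprr2e and Sprr2h were most alike, with a root mean square difference of 0.40 log2 units, and Sprr1a and Sprr2a2 least alike, at 2.04. Sprr2h lay closest to the mean profile of the 9 genes, at 0.30, and Sprr1a farthest, at 1.18, which includes its smaller amplitude. Of 3015 other named genes, whose median distance from the mean profile was 1.49, the closest was Il1f6 at 0.29. Il1f6 encodes the epithelial cytokine IL-36 alpha and read 10.34, 10.21, 9.42 and 8.61 in KO and 8.67, 6.72, 6.10 and 6.52 in WT. The next were Slc7a11, the cystine transporter gene, at 0.38, the retinol dehydrogenase gene Dhrs9 at 0.39, BC117090 at 0.45 and the cytokine gene Il24 at 0.52. These named genes were selected on the same contrast, and the arrays they share include the separation of WT replicate 1, so their likeness is a description over 8 arrays.

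**Figure D4:**
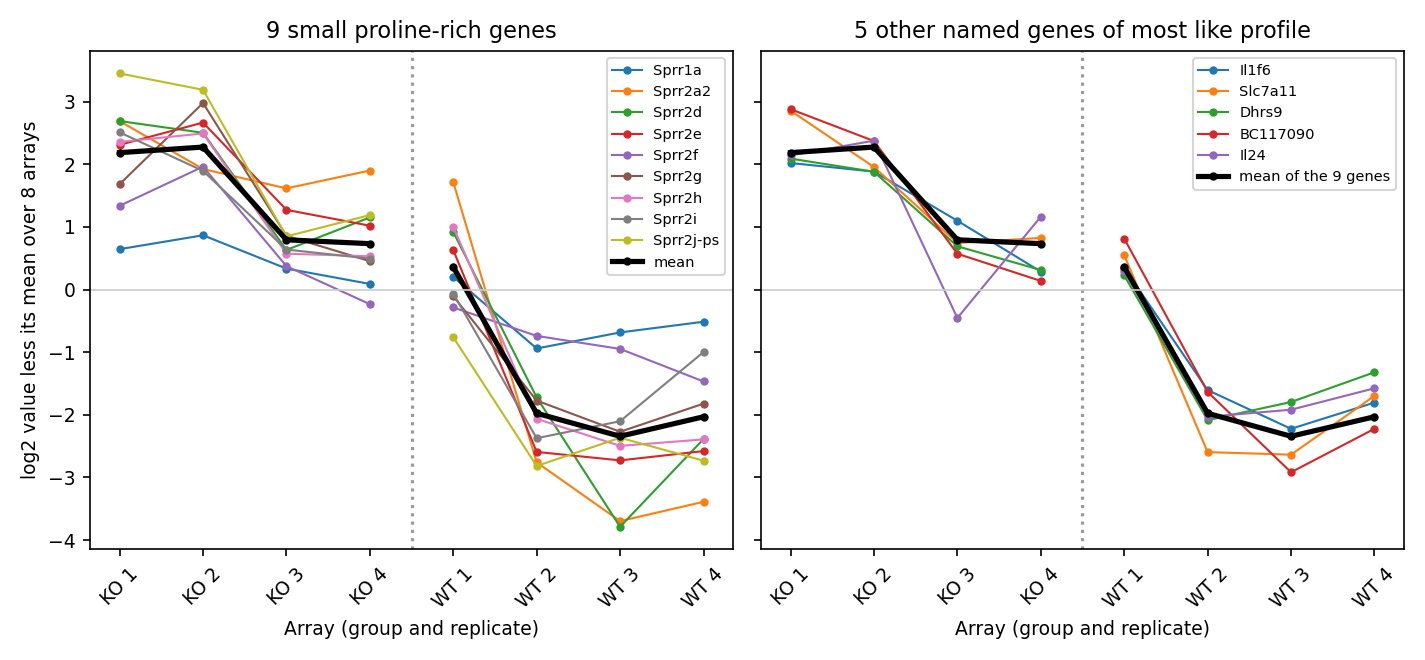
Log2 value less its mean over 8 arrays, KO arrays left of WT arrays, for the 9 small proline-rich genes (left) and for the 5 other named genes of most like profile (right), with the mean of the 9 genes in black; lines join arrays of a group for legibility only. The mean profile is 2.19 and 2.28 in KO replicates 1 and 2, 0.79 and 0.73 in KO replicates 3 and 4, 0.36 in WT replicate 1 and -2.34 to -1.98 in the other WT arrays.

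Partners of the small proline-rich proteins in the envelope were listed, with the enzymes that cross-link them. The list also held genes of other roles, such as the peptidoglycan recognition protein gene Pglyrp3. Krt1 was counted here and again among the keratinocyte markers below. Of the 34 listed genes 12 were in the deposited table, 12 higher and 0 lower, where 7.63% of all probe sets were in it as higher. The median difference of the 12 was 1.98 log2 units, which the table's own selection of changed genes fixes in part. The largest were the protease inhibitor genes Stfa3 (5.09, SE 1.26) and Stfa1 (3.57, SE 0.83, class 3) and the late envelope genes Lce3f (3.82, SE 1.06) and Lce3e (3.57, SE 1.0). Without WT replicate 1 these differences were 6.50 for Stfa3, 4.55 for Stfa1, 4.81 for Lce3f and 4.49 for Lce3e. WT replicate 1 lay within the KO range for Stfa3, Lce3f and Lce3e. Tgm1 encodes a transglutaminase that joins small proline-rich proteins to the envelope. It read 10.27, 10.81, 10.28 and 9.91 in KO and 9.87, 8.91, 8.95 and 9.12 in WT, a difference of 1.11 (SE 0.25). Involucrin, Ivl, an early scaffold of the envelope, differed by 1.10 (SE 0.25). For Tgm1 and Ivl, WT replicate 1 was the highest WT array. Tgm3 and Tgm5, transglutaminase genes also on the list, were not in the table.

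Of 16 transcription factor genes listed as regulators of Sprr promoters, 7 were in the table, 7 higher and 0 lower, against the same 7.63% of all probe sets. Their median difference was 1.32, and being in the table again selects genes that differ. Fosl1, an AP-1 subunit, read 8.20, 9.13, 7.63 and 7.56 in KO and 7.27, 5.55, 5.77 and 6.68 in WT, a difference of 1.81 (SE 0.44). Junb, another AP-1 subunit, read 10.52, 10.27, 9.63 and 10.21 in KO and 9.08, 8.25, 8.79 and 9.24 in WT, a difference of 1.32 (SE 0.25). The KO values of both genes lay above all WT values. The epithelial ETS factor genes Elf3 and Ehf differed by 1.48 (SE 0.30) and 1.34 (SE 0.21). The other AP-1 genes on the list, Fos, Fosb, Fosl2, Jun, Jund and Batf, were not in the table and have no value here. Pou2f3, an octamer-binding factor of the epidermis, was not in the table either. Factor binding and activity were not measured.

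Markers of other cell types were counted in the same table, where 7.63% of all probe sets were listed as higher. The markers it names are there because they differed, and those it does not name have no value here, so the levels below describe the named ones only. For neutrophils 5 of 8 markers were in the table, all higher, and the mean log2 value of those 5 was 7.78 to 9.57 in KO and 4.44 to 7.27 in WT, with the highest WT value in WT replicate 1. Differences were 5.22 for S100a9, 4.02 for S100a8, 2.77 for Ly6g, 2.53 for Cxcr2 and 0.85 for Camp. S100a8 read 11.57 in WT replicate 1, within its KO range, and Ly6g read 4.72 and 4.62 in KO replicates 3 and 4, against 4.12 in WT replicate 1. Which cells made these RNAs was not tested. The 3 mast cell markers in the table, of 7, averaged 7.38 to 8.98 in KO, against 5.55 to 6.06 in WT. The 2 T cell markers in the table, of 6, were Icos and Foxp3, while Cd3e, Cd3d, Cd4 and Cd8a were not in it. Icos and Foxp3 averaged 5.88 to 7.22 in KO, against 5.01 to 5.86 in WT. Of the macrophage, fibroblast, cartilage and sebaceous gland markers 0 were in the table, and of 5 striated muscle markers Mylk4 was lower (-1.70). The part of these cells in the Sprr values was not tested. Of 5 keratinocyte markers Krt1, the suprabasal keratin, was in the table, at 13.56, 12.90, 12.91 and 12.63 in KO and 12.56, 10.69, 10.30 and 10.91 in WT.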

How the data were processed

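For 33793 probe sets and 8 arrays the authors deposited log2 values, which per the submitters' processing notes came from RMA; version, options and probe set filter are not given in the sources used here. Per the file headers the array was Affymetrix Gene Mouse 2.0 ST. Their deposited table of differences holds 3411 probe sets with mean log2 values, fold ratios and p-values, adjusted by Benjamini-Hochberg. Of all probe sets, the 3411 that limma 3.58.1 (R 4.3.3) calls at adjusted p under 0.05 with a log2 difference of at least 0.5 were the same ones. Gene names came from that table alone, with the highest-mean probe set per gene.

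limma was fitted on all probe sets, KO minus WT, with moderation and two-sided Benjamini-Hochberg adjustment, and was tested on simulated data. The number of arrays limits the precision. The genes and lists were chosen with earlier results of these data known. Named are the Sprr genes, Cdsn, the 5 named genes of most like profile in each setting and members of the lists. Of the envelope and regulator lists the 4 with the largest change are named, and of the neutrophil and T cell lists all in the table. Tgm1, Ivl, Pglyrp3, Krt1 and Mylk4 were added for their roles, and some listed genes are named only as absent from the table. Promoters are RefSeq sequences of GRCm38.p6, searched and aligned with Python 3.11.15 and Biopython 1.88. Alternatives were other scalings, filters, moderation, array weights, a replicate block and leaving out arrays. The arrays were of different animals, so replicate numbers were not used as pairs in the main fit.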

Additional observations from a re-analysis of the deposited data

Results flagged for a closer look

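WT replicate 1 lay far from the other WT arrays for 3 of the 10 Sprr probe sets, by Dixon's ratio of the gap to the nearest array over the range of the 4 arrays. It read 8.22 for Sprr2e (ratio 0.956), 8.61 for the second Sprr2a2 probe set (0.890) and 6.74 for Sprr2h (0.876), each above Dixon's critical value for 4 values. The other Sprr2a2 probe set, at 0.827, fell just short of it. No KO array was that far from the others. In all 20 groups of 4 were examined, chance flags about 1 in 20, and the probe sets share the same animals.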

How the results depend on the processing

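All 9 Sprr genes were higher in KO under each alternative in which they were tested, and the adjusted p of limma depended on the setting. The number of the 9 genes called was 9 with array weights, with trend and robust moderation and with the replicate block, 7 after median centring and 6 after quantile normalization. It was 2 of the 6 still tested when dim probe sets were left out and 1 without moderation, namely Sprr2j-ps. Leaving out single arrays gave 3 to 9 calls, reaching 9 without WT replicate 1, 7 when KO replicate 4 was dropped and 6 when KO replicate 3 was. It was 4 when KO replicate 1 or WT replicate 4 was dropped, and 3 when the array dropped was KO replicate 2 or WT replicate 2 or 3. Sprr2e, Sprr2g and Sprr2j-ps kept their call whichever of the 8 arrays was dropped. Sprr2a2 missed the threshold in 7 of these fits, Sprr1a, Sprr2d and Sprr2h in 6, Sprr2f in 5 and Sprr2i in 3, and the highest adjusted p of limma was 0.107. The median difference of the 9 genes ranged from 2.64 to 3.81 with an array left out. Over all probe sets 3350 were called higher and 1078 lower. The counts were 1689 and 1751 with quantile normalization and 1819 and 1598 with median centring. With an array left out they were 1574 to 2670 higher and 582 to 837 lower. They were 3426 higher and 1142 lower with array weights and 3389 and 1040 with trend and robust moderation. No moderation gave 2448 and 797. Without dim probe sets 595 and 123 were called, of 16897 tested instead of 33793. Calls in the higher direction made up 75.7% for the deposited values, 49.1% with quantile normalization and 53.2% with median centring, and the median of all probe sets moved from 0.094 to -0.021 and -0.005. The median of the 9 genes was 2.89 after either scaling. The replicate block gave 3917 higher and 1233 lower calls, more in each direction than the main fit. The correlations of same-numbered arrays' deviations were 0.548, -0.0624, 0.276 and 0.304. The numbers were not taken as pairs because each array held a different animal. Whether same-numbered arrays had something else in common was not tested. KO and WT did not overlap for 9 genes without WT replicate 1, an alternative chosen after seeing the data, against 5 with it. Of the 5 genes of most like profile 4 were kept without WT replicate 1 and 3 with deviations from the group means. The cause of these changes was not tested.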

Other observations

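When the difference between KO and WT was removed by subtracting each group's mean, the named genes most like the Sprr genes were Il1f6 (root mean square difference 0.23 log2 units), the epidermal kallikrein gene Klk8 (0.29), Dhrs9 (0.29), the kallikrein gene Klk9 (0.32) and Slc7a11 (0.37). Klk8 read 10.85, 10.70, 9.52 and 9.23 in KO and 9.56, 8.13, 7.85 and 7.88 in WT, so that the same KO arrays and the same WT array were high as for the Sprr genes. Tpsab1, a mast cell tryptase gene, entered the 5 closest genes only without WT replicate 1, at 0.41. It read 9.91, 10.05, 9.00 and 8.56 in KO and 5.17, 4.91, 5.09 and 5.16 in WT, with WT replicate 1 among the other WT arrays.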
